A study of Mus musculus with 6 samples.

Results

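Notch signaling was described through 10 of its genes in tumor-derived organoids of the mouse small intestine that differed in their Trp53 genotype. The genes were the receptors Notch1, Notch2 and Notch3, the ligands Dll1, Dll4, Jag1 and Jag2, the target genes Hes1 and Nrarp, and Atoh1, a factor that Notch signaling keeps off. They were chosen by name, and each was found once among the 36172 genes of the deposited table. All 6 libraries came from C57BL/6 mice of 15 to 20 weeks whose tumors carried the Apc(D716) truncation with loss of the other Apc allele, so the control organoids were Apc-mutant tumor cells too. The 3 genotypes, with 2 libraries each, were Trp53 +/+, Trp53 flox/flox and Trp53 R270H/R270H (M/M in the labels). In Trp53 flox/flox the R270H allele sits behind a stop cassette that was not removed, which leaves the cells without p53. In Trp53 R270H/R270H that cassette was removed by a tamoxifen-inducible Cre under the villin promoter, which acts in intestinal epithelium, and both alleles make the missense protein. The libraries of a genotype are organoids from different mice, kept in culture without the stroma of the tumor.

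Notch receptors are cut by proteases when a ligand on a neighboring cell binds them, and the freed intracellular part joins the DNA-binding protein RBPJ in the nucleus and switches on genes such as Hes1. In the crypt, a cell that receives the signal stays a progenitor or becomes an absorptive cell, because the HES1 repressor holds down Atoh1. A cell that escapes the signal keeps ATOH1 and becomes a goblet, Paneth or enteroendocrine cell, and these secretory cells in turn display Notch ligands to their neighbors.

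Values are rpkm (read counts scaled by transcript length and by the number of mapped reads), which allow levels of different genes to be set side by side. No deposited value is below 1 rpkm, so a gene at 1 rpkm is at the floor of the table and its true level is unknown. Differences between genotypes are given on the log2(rpkm+1) scale with limma's moderated two-sided test and Benjamini-Hochberg adjustment across the 10042 genes that reached 4 rpkm in at least 1 library. A gene was called at an adjusted p under 0.05. Of the 10 genes, 7 passed this filter and Notch3, Dll4 and Atoh1 did not. Dll1 and Nrarp passed it through Trp53 flox/flox replicate 1 alone.

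The labels were checked with Trp53 itself, which had 75.9 and 74.3 rpkm in Trp53 +/+, 1.73 and 2.48 rpkm in Trp53 flox/flox and 72.8 and 82.7 rpkm in Trp53 R270H/R270H. The epithelial markers were high in every library, with summed levels of 6 genes between 2186 and 4297 rpkm, while the fibroblast list summed to 6.00 to 7.72 rpkm over 6 genes, close to its floor. Secretory markers differed between the genotypes. Summed over 7 Paneth cell genes, the level was 1423 to 1776 rpkm in Trp53 +/+, 602 to 631 rpkm in Trp53 flox/flox and 568 to 621 rpkm in Trp53 R270H/R270H, and 7 goblet cell genes summed to 352 to 415, 147 to 179 and 177 to 180 rpkm. The Paneth genes did not all move alike, since 5 of the 7 were called lower and 2 higher in Trp53 R270H/R270H against Trp53 +/+. The 2 higher genes had means of 146 against 74.9 rpkm for Itln1 and 45.7 against 10.6 rpkm for Defa22. Over all genes tested, 12.2% were called in that comparison and 6.36% were called lower. In such bulk samples, fewer cells of a type and less RNA per cell cannot be told apart. The Trp53 flox/flox libraries differed most from each other, with a median SD per gene of 0.25 on the log2 scale against 0.05 in Trp53 +/+ and 0.06 in Trp53 R270H/R270H. Depth, estimated from the 1-read steps of short RNA genes, was 44.2 to 47.4 M reads in 5 libraries. For Trp53 flox/flox replicate 1 that estimate rested on 6 genes and is not clear.

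Promoter sequences were at hand in RefSeq for 9 of the 10 genes, all but Hes1, on GRCm38.p6. A window of 250 bases before to 50 after the start site was searched on both strands for TGGGAA, the core of RBPJ sites, for CTTTGAT, a TCF/LEF motif of Wnt target genes, and for the p53 half-site. Among the 10 windows of these genes (Dll1 has a pair of them), TGGGAA and the p53 half-site were found in 0, where 25.6% and 8.36% of all 32851 mouse windows held them. CTTTGAT was found in 1 window, that of Atoh1, at 148 bases before the start site, and in 3.73% of all windows. Absence of these letters from so short a window says nothing about binding elsewhere. The first 2 sequences below belong to a ligand and a receptor whose RNA differed between genotypes, with each CG dinucleotide in capitals. The third belongs to Atoh1, with the CTTTGAT match in capitals.
Jag1, chr2:137116645-137116770, minus strand: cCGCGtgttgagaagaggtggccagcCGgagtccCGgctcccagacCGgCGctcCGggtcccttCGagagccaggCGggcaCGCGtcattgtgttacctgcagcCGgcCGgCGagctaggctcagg
Notch3, chr17:32166891-32167140, minus strand: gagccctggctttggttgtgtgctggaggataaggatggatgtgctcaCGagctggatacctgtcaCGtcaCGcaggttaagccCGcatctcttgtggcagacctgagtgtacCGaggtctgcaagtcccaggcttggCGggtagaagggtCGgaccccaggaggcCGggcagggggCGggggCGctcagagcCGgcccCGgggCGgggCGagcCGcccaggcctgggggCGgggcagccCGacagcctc
Atoh1, chr6:64728875-64729124, plus strand: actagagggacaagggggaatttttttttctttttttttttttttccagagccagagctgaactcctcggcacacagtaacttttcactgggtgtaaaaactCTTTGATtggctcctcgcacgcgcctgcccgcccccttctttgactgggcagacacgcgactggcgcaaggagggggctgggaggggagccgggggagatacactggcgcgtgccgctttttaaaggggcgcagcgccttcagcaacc
The Jag1 stretch is the part of its 250 upstream bases that GENCODE leaves outside the gene. In the 250 bases before the start there were 20 CG dinucleotides for Jag1, 17 for Notch3 and 14 for Atoh1, and 54 for Jag2, whose window lies wholly inside the gene by GENCODE. The median over all windows was 6.00.

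**Figure D1:**
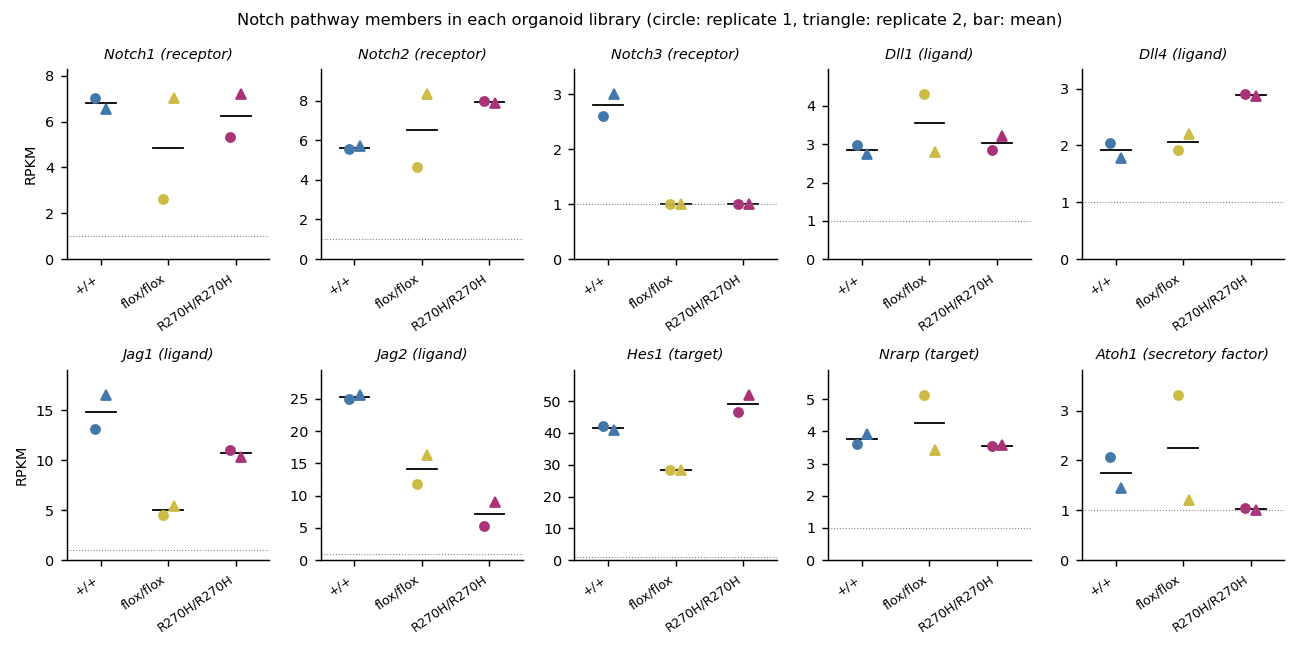
RPKM of the 10 Notch genes (y axis, from 0, a separate scale for each gene) in the libraries of 3 Trp53 genotypes (x axis). Circles are replicate 1, triangles replicate 2, bars the mean of 2 libraries, and the dotted line the floor of 1 rpkm; Jag1, Jag2 and Notch3 are highest in Trp53 +/+, and Hes1 is lowest in Trp53 flox/flox.

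Over the whole set, the order of mean levels differed in part between the genotypes. The lowest mean was that of Atoh1 in Trp53 +/+ and that of Notch3, at the floor, in both mutant genotypes. Hes1 was the highest of the 10 genes in each genotype, at 41.5, 28.3 and 49.3 rpkm in Trp53 +/+, Trp53 flox/flox and Trp53 R270H/R270H. Jag2 and Jag1 followed in Trp53 +/+, at 25.3 and 14.8 rpkm, but Notch2 stood between them in both mutant genotypes, with Jag2 above and Jag1 below it in Trp53 flox/flox and the reverse in Trp53 R270H/R270H. Notch1, Notch2, Nrarp, Dll1, Notch3, Dll4 and Atoh1 all lay between 1.00 and 8.32 rpkm in every library.

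The ligands Jag1 and Jag2 carried the main differences. These Jagged proteins sit in the membrane of the sending cell, and Jag1 is in addition a known Wnt target. Jag1 (chr2:137081456-137116644, minus strand, GRCm38) had 13.1 and 16.5 rpkm in the Trp53 +/+ libraries, 4.48 and 5.45 rpkm in Trp53 flox/flox and 11.1 and 10.4 rpkm in Trp53 R270H/R270H. The 3 genotypes did not overlap, and the organoids without p53 were lowest. In Trp53 flox/flox, Jag1 fell by 66.5% against Trp53 +/+, a log2 difference of -1.40 (SE 0.16, limma adjusted p=0.0134). The Trp53 R270H/R270H mean was 2.16-fold that of Trp53 flox/flox, and this rise was called (log2 difference 0.98, SE 0.16, limma adjusted p=0.0168). Between Trp53 R270H/R270H and Trp53 +/+ the difference was -0.43 (interval -0.82 to -0.03, limma adjusted p=0.139) and was not called, although the libraries did not overlap.

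Jag2 (chr12:112907819-112929776, minus strand) had 25.04 and 25.6 rpkm in Trp53 +/+, 11.8 and 16.3 rpkm in Trp53 flox/flox and 5.31 and 8.93 rpkm in Trp53 R270H/R270H. Here too the genotypes did not overlap, but Trp53 R270H/R270H was lowest. Jag2 was 3.56-fold lower in Trp53 R270H/R270H than in Trp53 +/+ (log2 difference -1.73, SE 0.26, 95% confidence interval -2.39 to -1.07, limma adjusted p=0.0198). In Trp53 flox/flox its mean was 1.80-fold below that of Trp53 +/+ (-0.82, interval -1.48 to -0.16, limma adjusted p=0.0985), and Trp53 R270H/R270H differed from Trp53 flox/flox by -0.91 (interval -1.57 to -0.25, limma adjusted p=0.0579). Neither passed the threshold. Without Trp53 flox/flox replicate 1 the former difference was -0.60 and the latter -1.13. Without replicate 2 they were -1.04 and -0.70.

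Within a library, the ratio of Jag2 to Jag1 is free of the scaling between libraries. It was 1.91 and 1.55 in Trp53 +/+, 2.64 and 2.996 in Trp53 flox/flox and 0.480 and 0.862 in Trp53 R270H/R270H. Jag2 was thus above Jag1 in all 4 libraries of the first pair of genotypes and below it in both Trp53 R270H/R270H libraries. The sum of both Jagged ligands was 38.1 and 42.1 rpkm in Trp53 +/+, 16.3 and 21.8 rpkm in Trp53 flox/flox and 16.4 and 19.3 rpkm in Trp53 R270H/R270H, so the mutant genotypes overlapped in the sum though not in either gene.

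The Delta-like ligands were low. Dll1 (chr17:15367354-15376872, minus strand), which marks early secretory progenitors in the crypt, had 2.98 and 2.74 rpkm in Trp53 +/+, 4.31 and 2.81 rpkm in Trp53 flox/flox and 2.84 and 3.21 rpkm in Trp53 R270H/R270H. All 3 genotypes overlapped, and the log2 differences were 0.06, 0.22 and -0.16 for Trp53 R270H/R270H against Trp53 +/+, Trp53 flox/flox against Trp53 +/+ and Trp53 R270H/R270H against Trp53 flox/flox (limma adjusted p=0.874, 0.454 and 0.553). Without Trp53 flox/flox replicate 2 the last 2 were 0.46 and -0.40. Trp53 flox/flox then rested on replicate 1 alone, the library through which Dll1 passed the filter. Dll4 (chr2:119325784-119335962, plus strand), another ligand of crypt secretory cells that is also known from vessels, had 2.05 and 1.78 rpkm, 1.92 and 2.21 rpkm, and 2.90 and 2.87 rpkm in the same order of genotypes as Dll1. Its Trp53 R270H/R270H libraries were above the other 4, with a mean 1.51-fold that of Trp53 +/+. When every gene above 1 rpkm in a library was tested, which gave 12412 genes, Dll4 rose in Trp53 R270H/R270H, both against Trp53 +/+ (log2 difference 0.42, limma adjusted p=0.0428, with 15.4% of genes called) and against Trp53 flox/flox (0.34, adjusted p=0.0497, with 24.6% called), and was not called with no filter at all (adjusted p=0.159 and 0.176).

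The make-up of the ligands differed as well. Jag1 and Jag2 made 88.3% and 90.3% of the summed rpkm of the 4 ligands in Trp53 +/+, 72.3% and 81.3% in Trp53 flox/flox and 74.0% and 76.0% in Trp53 R270H/R270H. Both mutant genotypes lay below Trp53 +/+ and overlapped with each other. The Delta-like sum was 5.03 and 4.52 rpkm, 6.23 and 5.02 rpkm, and 5.74 and 6.08 rpkm, in which only Trp53 R270H/R270H was clear of Trp53 +/+. Beside this, the Paneth and goblet cell sums given above were also lower in both mutant genotypes, and the part of these cells in the ligand levels was not tested.

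**Figure D2:**
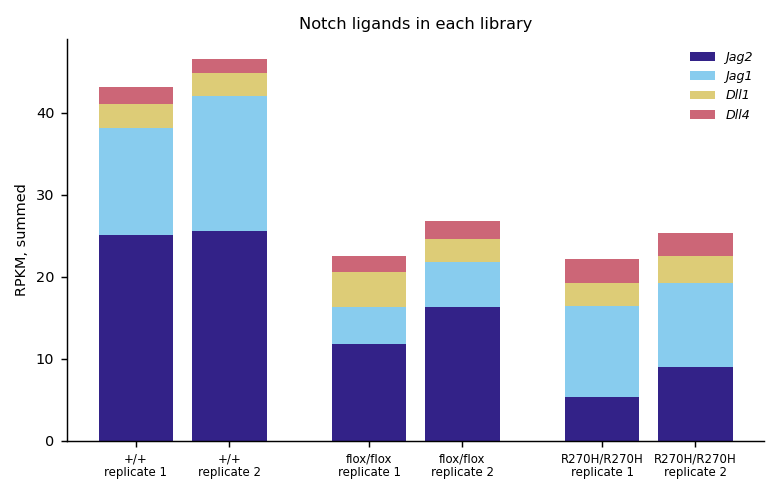
Stacked bars of the rpkm of Jag2, Jag1, Dll1 and Dll4 (y axis, from 0) in each of the 6 libraries (x axis). The total was 43.2 and 46.6 rpkm in Trp53 +/+ and between 22.1 and 26.8 rpkm in the 4 mutant libraries; the Jag2 segment is shortest in Trp53 R270H/R270H and the Jag1 segment in Trp53 flox/flox.

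Of the receptors, Notch1 and Notch2 did not differ by the test and Notch3 was listed above the floor in Trp53 +/+ alone. Notch1 (chr2:26457903-26516663, minus strand), the main receptor of crypt progenitors together with Notch2, had 7.04 and 6.56 rpkm in Trp53 +/+, 2.64 and 7.03 rpkm in Trp53 flox/flox and 5.33 and 7.21 rpkm in Trp53 R270H/R270H. The genotypes overlapped, and the low value stood alone in Trp53 flox/flox replicate 1. Log2 differences were -0.11, -0.53 and 0.42 for Trp53 R270H/R270H against Trp53 +/+, Trp53 flox/flox against Trp53 +/+ and Trp53 R270H/R270H against Trp53 flox/flox (limma adjusted p=0.873, 0.362 and 0.439). Without Trp53 flox/flox replicate 1 the last 2 were 0.04 and -0.16, and without replicate 2 they were -1.10 and 0.99, so the sign for Notch1 rests on which library is kept.

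Notch2 (chr3:98013527-98150361, plus strand) had 5.54 and 5.71 rpkm in Trp53 +/+, 4.65 and 8.32 rpkm in Trp53 flox/flox and 7.97 and 7.87 rpkm in Trp53 R270H/R270H. Trp53 R270H/R270H was clear of Trp53 +/+, and the Trp53 flox/flox pair spanned both. The mean was 1.41-fold that of Trp53 +/+ in Trp53 R270H/R270H (log2 difference 0.43, interval -0.20 to 1.05, limma adjusted p=0.297). The spread behind this interval is shared by the 3 genotypes. A fit of only Trp53 R270H/R270H and Trp53 +/+ gave the same difference an adjusted p of 0.0033, in a comparison that called 59.1% of all genes.

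Notch3 (chr17:32120820-32166852, minus strand), a receptor best known from smooth muscle cells and pericytes of vessels, had 2.61 and 3.01 rpkm in Trp53 +/+ and was at the floor of 1.00 rpkm in all 4 mutant libraries. It was thus at least 2.81-fold lower in both mutant genotypes. Among the genes above 1 rpkm in a library it was called lower in Trp53 R270H/R270H (limma adjusted p=0.00333) and in Trp53 flox/flox (adjusted p=0.0076), of 15.4% and 11.8% of genes called, though it entered that test through its Trp53 +/+ level alone and values at the floor have no spread. With no filter the adjusted p was 0.0389 and 0.0617. The pericyte and smooth muscle list did not follow it, since Myh11, Des, Rgs5 and Cspg4 were at the floor in every library and Acta2, at 11.5 rpkm in Trp53 flox/flox replicate 2, was at most 1.59 rpkm elsewhere. Of the 6 endothelial genes, Pecam1, Kdr and Emcn were at the floor in every library, but Cdh5 had 8.88 and 9.35 rpkm in Trp53 +/+, 1.00 and 3.30 rpkm in Trp53 flox/flox and 1.04 and 1.00 rpkm in Trp53 R270H/R270H. Esam had 6.47 and 6.29 rpkm, 1.75 and 3.15 rpkm, and 2.24 and 2.28 rpkm in the same order of genotypes. Tek had a mean of 3.97 rpkm in Trp53 +/+, 1.00 and 21.4 rpkm in Trp53 flox/flox and 1.16 and 1.13 rpkm in Trp53 R270H/R270H. Tek was thus highest in Trp53 flox/flox replicate 2, where Notch3 was at the floor. The endothelial sum was 22.4 to 22.6 rpkm, 6.75 to 30.8 rpkm and 7.41 to 7.44 rpkm. Its highest value, 30.8 rpkm, was mostly Tek. The part of the endothelial genes in the Notch3 level was not tested.

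The target gene Hes1 (chr16:30064384-30067796, plus strand), which encodes a repressor that acts as a main effector of the signal in the crypt, separated the mutant genotypes. It had 42.1 and 41.0 rpkm in Trp53 +/+, 28.4 and 28.3 rpkm in Trp53 flox/flox and 46.6 and 52.0 rpkm in Trp53 R270H/R270H. No genotypes overlapped, with Trp53 flox/flox lowest and Trp53 R270H/R270H highest. Its Trp53 R270H/R270H mean was 1.74-fold that of Trp53 flox/flox, a rise that was called (log2 difference 0.78, SE 0.10, 95% confidence interval 0.52 to 1.03, limma adjusted p=0.0103). In Trp53 flox/flox it fell by 31.8% against Trp53 +/+ (log2 difference -0.54, SE 0.10, limma adjusted p=0.0352). Between Trp53 R270H/R270H and Trp53 +/+ the difference of 0.24 (interval -0.01 to 0.49, limma adjusted p=0.173) was not called.

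Nrarp (chr2:25180758-25183339, plus strand), a feedback inhibitor that a Notch signal induces directly, did not follow Hes1. It had 3.59 and 3.93 rpkm in Trp53 +/+, 5.13 and 3.41 rpkm in Trp53 flox/flox and 3.54 and 3.58 rpkm in Trp53 R270H/R270H. The largest log2 difference was -0.19, for Trp53 R270H/R270H against Trp53 flox/flox (interval -0.67 to 0.29, limma adjusted p=0.468). Without Trp53 flox/flox replicate 2 it was -0.43. The difference of Trp53 flox/flox against Trp53 +/+ was then 0.36, and 0.13 with both libraries. Without replicate 2, Trp53 flox/flox rested on replicate 1 alone, the library through which Nrarp passed the filter. The ratio of Hes1 to Nrarp was 11.7 and 10.4 in Trp53 +/+, 5.53 and 8.29 in Trp53 flox/flox and 13.2 and 14.5 in Trp53 R270H/R270H, and these ranges did not overlap.

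Atoh1 (chr6:64729125-64731245, plus strand), the switch to the secretory fate, was low in every library. It had 2.07 and 1.44 rpkm in Trp53 +/+, 3.31 and 1.20 rpkm in Trp53 flox/flox and 1.04 and 1.00 rpkm in Trp53 R270H/R270H. The Trp53 R270H/R270H libraries were below the other 4, at or just above the floor, while the remaining genotypes overlapped. Among the genes above 1 rpkm the limma adjusted p was 0.429 for Trp53 R270H/R270H against Trp53 +/+ and 0.232 against Trp53 flox/flox. At the depth of these libraries 1 rpkm of Atoh1 is about 94 reads, so counting error alone is near 10.3% at that level.

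**Figure D3:**
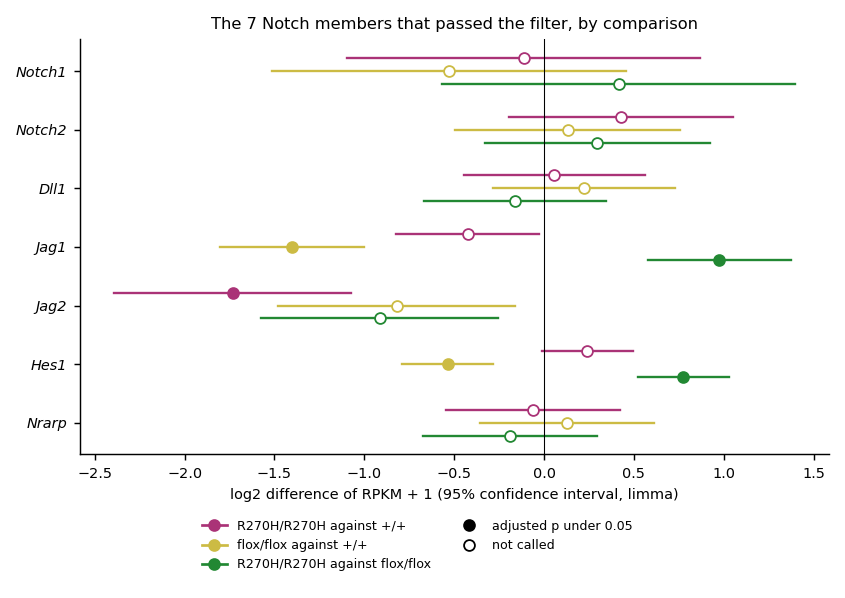
Log2 difference of rpkm+1 with its 95% confidence interval (x axis) for the 7 Notch genes that passed the filter (y axis), in 3 comparisons shown by color. Filled points passed an adjusted p of 0.05: Jag2 at -1.73 in Trp53 R270H/R270H against Trp53 +/+, Jag1 at -1.40 and Hes1 at -0.54 in Trp53 flox/flox against Trp53 +/+, and Jag1 at 0.98 and Hes1 at 0.78 in Trp53 R270H/R270H against Trp53 flox/flox.

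Counted together, 1 of the 7 tested genes was called in Trp53 R270H/R270H against Trp53 +/+, as lower, where 12.2% of all genes tested were called and 6.36% were called lower. For Trp53 flox/flox against Trp53 +/+, 2 of the 7 were called, both lower, with 11.3% of all genes called and 6.9% called lower. Between the mutant genotypes 2 of the 7 were called, both higher in Trp53 R270H/R270H, with 24.6% of all genes called and 13.6% called higher. With 7 genes such counts cannot be set apart from the background. The median log2 differences of the 7 were -0.06, -0.53 and 0.30, beside 0.03, -0.02 and 0.03 over all genes tested. A median of 7 is the value of 1 gene, Notch1 for -0.53 and Notch2 for 0.30. Without Trp53 flox/flox replicate 1 these 2 genes turned to 0.04 and -0.06, so the medians show no shift of the set. Libraries did not overlap for 8 of the 10 genes in Trp53 R270H/R270H against Trp53 +/+, for 4 in Trp53 flox/flox against Trp53 +/+ and for 5 in Trp53 R270H/R270H against Trp53 flox/flox, where 81.8%, 64.5% and 68% of all genes tested did not. The 10 include Notch3, Dll4 and Atoh1, which did not pass the filter, while the shares cover only genes that did. The first 2 comparisons share the Trp53 +/+ libraries and the last shares a genotype with each.

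Whether these calls stand depends on the filter and on the libraries kept. With no filter on low values, Jag2 in Trp53 R270H/R270H against Trp53 +/+, Jag1 in both its comparisons and Hes1 in Trp53 flox/flox against Trp53 +/+ were no longer called (adjusted p=0.115, 0.0839, 0.0834 and 0.0986). With Trp53 flox/flox replicate 1 left out, Jag1 and Hes1 differed from Trp53 +/+ by -1.28 and -0.54 in Trp53 flox/flox. With replicate 2 left out they differed by -1.52 and -0.53. Leaving out either library of Trp53 +/+ or of Trp53 R270H/R270H kept all 5 directions, while Jag1, Jag2 and Hes1 were no longer called. The share of all genes called fell in these fits as well, so the lost calls say little about these genes. The log2 difference of Jag2 in Trp53 R270H/R270H against Trp53 +/+ was then -1.41 to -2.06. In a fit of only Trp53 R270H/R270H and Trp53 +/+, Jag1 and Hes1 were called as well, lower and higher (limma adjusted p=0.0189 and 0.0265). That fit called 59.1% of all genes, so such calls say little about these 2 genes. Fits of Trp53 flox/flox with only 1 other genotype gave Jag1 an adjusted p of 0.0802 against Trp53 +/+ and 0.0575 against Trp53 R270H/R270H. For Hes1 these were 0.116 and 0.0603. Those fits called 0.609% and 4.03% of all genes. With the replicate number as a block, Hes1 was no longer called in Trp53 flox/flox against Trp53 +/+ (adjusted p=0.0866).

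The genes whose pattern over the 6 libraries was most like a called member were found by the Euclidean distance between centred log2(rpkm+1) values. For Jag1 they were Acox3 (distance 0.246), Plcg1 (0.256) and Upk3b (0.257). For Jag2 they were Pck2 (0.413), AI118078 (0.419) and Gsto1 (0.439), and for Hes1 they were Lins (0.0921), Oaz2 (0.0930) and Zfp747 (0.144).

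The rest of the pathway was read from a list of 66 further genes, of which 17 were at the floor in every library and 45 were tested. Among those at the floor in every library were the receptor Notch4, the ligand Dll3 and 7 of 8 other Hes and Hey factors, the exception being Hes6. In Trp53 R270H/R270H against Trp53 +/+, 4 of the 45 were called higher and 1 lower (11.1%, with 12.2% of all genes), and the median log2 difference was 0.17. Olfm4, a stem cell gene that Notch signaling sustains, had 1.00 rpkm in both Trp53 +/+ libraries and 7.98 and 13.1 rpkm in Trp53 R270H/R270H, at least 10.5-fold higher (limma adjusted p=0.0199). Tle2, a Groucho corepressor that HES proteins recruit, was at the floor in Trp53 +/+ and Trp53 flox/flox and had 3.29 and 4.05 rpkm in Trp53 R270H/R270H, at least 3.67-fold higher (adjusted p=0.015). Aph1b, a subunit of the gamma-secretase that cuts the receptor, was 1.91-fold higher (adjusted p=0.042), and the histone deacetylase Hdac1 was 1.53-fold higher (adjusted p=0.0241). Olfm4, Tle2 and Aph1b reached 4 rpkm in Trp53 R270H/R270H alone and so entered the test through the genotype in which they are high, and values at the floor have no spread, so these 3 calls are given as a description. Ccnd1, which encodes cyclin D1, fell by 46.5% (adjusted p=0.0349). Aph1b has a near-identical copy, Aph1c, which was at the floor, and how reads were split between them is not stated.

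In Trp53 flox/flox against Trp53 +/+, 1 of the 45 was called higher and 3 lower (8.89%, with 11.3% of all genes; median -0.06). Tle4, another Groucho corepressor, was 1.94-fold higher (limma adjusted p=0.0273). The genes called lower were Poglut1, which adds glucose to Notch receptors, at -0.89 (adjusted p=0.0134), Ncstn, the nicastrin subunit of gamma-secretase, at -0.69 (0.0353), and Maml3, a coactivator of the RBPJ complex, at -0.68 (0.037). Between the mutant genotypes, 10 were called higher in Trp53 R270H/R270H and 1 lower (24.4%, with 24.6% of all genes; median 0.31). The higher ones took in the protease Adam10, Ncstn, Poglut1, Maml3, the corepressors Cir1, Hdac1 and Tle2, the Notch inhibitor Numb, the ubiquitin ligase gene Dtx3 and Olfm4, and the lower one was Aph1a. Maml3, Tle2 and Olfm4 reached 4 rpkm in Trp53 R270H/R270H alone. Poglut1, Ncstn and Maml3 thus passed the test in both comparisons that involve Trp53 flox/flox. Mib2, a ubiquitin ligase that acts on Notch ligands, is added here because of its values, which were 7.78 and 8.48 rpkm in Trp53 +/+, 1.96 and 4.04 rpkm in Trp53 flox/flox and 2.22 and 3.37 rpkm in Trp53 R270H/R270H, though it missed the threshold (adjusted p=0.059 and 0.0531 against Trp53 +/+).

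**Figure D4:**
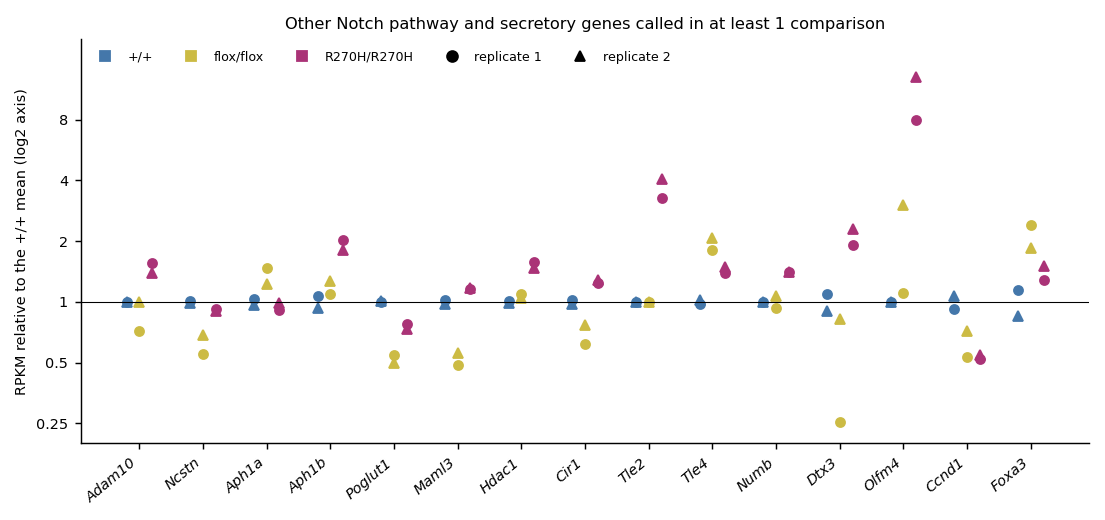
RPKM of each library relative to the Trp53 +/+ mean (y axis, log2 scale) for 15 further Notch pathway or secretory genes called in at least 1 comparison (x axis). Colors are the genotypes, circles replicate 1 and triangles replicate 2; Olfm4 and Tle2 stand above the line in Trp53 R270H/R270H, where the Trp53 +/+ libraries are at the floor, and Ncstn, Poglut1 and Maml3 are lowest in Trp53 flox/flox.

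Below Atoh1, a list of 11 factors of the secretory cascade had 4 genes at the floor in every library and 5 that were tested. Foxa3, a factor of goblet cells, was 2.13-fold higher in Trp53 flox/flox than in Trp53 +/+, with 36.4 and 28.0 rpkm against 17.4 and 12.9 rpkm (log2 difference 1.04, limma adjusted p=0.0377), and was the 1 gene of this list called, where 11.3% of all genes were. For Trp53 R270H/R270H, 0 of the 5 were called by limma against either genotype, where 12.2% and 24.6% of all genes were called, and 1 had an unadjusted p under 0.05 in each. Neurog3, the factor that starts the enteroendocrine line, had 2.58 and 1.32 rpkm in Trp53 +/+, 2.73 and 1.21 rpkm in Trp53 flox/flox and was at the floor in both Trp53 R270H/R270H libraries. Spdef had 1.80 and 1.03 rpkm, 1.00 and 4.89 rpkm, and 1.00 and 1.28 rpkm. Atoh1 and Neurog3 thus shared their lowest values in Trp53 R270H/R270H, where the 8 enteroendocrine markers were all at the floor too. Of these markers, 3 were at the floor in every library and only Chgb passed the filter. Their sum was 15.5 to 19.8 rpkm in Trp53 +/+ and 8.91 to 9.65 rpkm in Trp53 flox/flox, so this list was near its floor in both mutant genotypes.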

How the data were processed

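Stranded poly(A) RNA libraries were sequenced on a HiSeq. Per the labels the genome build is mm10, and the authors mapped to it and obtained rpkm in StrandNGS, whose version, annotation and read filters are not given in the sources used here, and deposited 1 table of rpkm values. That the 1 rpkm floor replaces lower values was inferred from the table. The table holds no counts, so depth was estimated, and counting errors cover sampling alone.

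Groups are the 3 Trp53 genotypes of the labels. With R 4.3.3 and limma 3.58.1, log2(rpkm+1) of the 10042 genes entered lmFit and eBayes with a trend over all 6 libraries, without a block. The pseudocount of 1 makes differences of low genes smaller than their ratios. For a single gene, 2 against 2 libraries allow no exact permutation p below 0.333. Sums, ratios, coordinates and motifs were computed in Python 3.11.15. Coordinates are those of GENCODE M21, matched by symbol. The code was tested on simulated data of the Trp53 R270H/R270H against Trp53 +/+ comparison with 10042 genes. With an equal spread, 100 of 100 genes that differed by 1.00 and 100 of 100 that differed by 2.00 on the log2 scale were recovered, with 9 false calls. When each genotype kept its own spread, 11 of 100 genes that differed by 1.00 and 89 of 100 that differed by 2.00 on the log2 scale were recovered. Every simulated gene of a genotype had the same SD, the root mean square over genes. In Trp53 flox/flox this was 0.458, beside a median of 0.247. Real genes differ in spread, so these shares do not give the recovery of single genes here.

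The Notch genes, the other lists and the alternatives were chosen with earlier results of these data known. Every Notch gene is named; other pathway and secretory genes are named where called in at least 1 comparison, and Neurog3, Spdef, Mib2, Notch4, Dll3, Hes6, Aph1c and the marker genes for context. Alternatives were pseudocounts of 0.1 and none, filters above 1 rpkm, at 4 rpkm in both libraries of a genotype and none, median-of-ratios and upper-quartile scaling, weights by genotype, fits restricted to the pair of genotypes compared, eBayes without trend, a replicate block, and each library left out.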

Additional observations from a re-analysis of the deposited data

How the results depend on the processing

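Directions of the 7 Notch genes that were tested held under every pseudocount and scaling tried. The 6 directions that turned did so with 1 library left out. Each log2 difference is a difference of genotype means, which a filter, weights or a block leave as they are. Those settings could change a call but not a direction, so they do not test the directions. For Notch3, Dll4 and Atoh1 only the filters above 1 rpkm and none were run. With 1 library left out at a time, the log2 difference of Notch1 ran from -0.300 to 0.0732 in Trp53 R270H/R270H against Trp53 +/+ (positive without Trp53 R270H/R270H replicate 1), from -1.10 to 0.0423 in Trp53 flox/flox against Trp53 +/+ and from -0.156 to 0.986 between the mutant genotypes, where both turned without Trp53 flox/flox replicate 1. For Notch2 it ran from -0.229 (without Trp53 flox/flox replicate 2) to 0.493 in Trp53 flox/flox against Trp53 +/+ and from -0.0644 (without replicate 1) to 0.658 between the mutant genotypes. For Dll1 in Trp53 R270H/R270H against Trp53 +/+ it ran from -0.00851 (without Trp53 R270H/R270H replicate 2) to 0.124.

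Counts of called genes moved more, as did the share of all genes called. That share was 12.2%, 11.3% and 24.6% in Trp53 R270H/R270H against Trp53 +/+, Trp53 flox/flox against Trp53 +/+ and Trp53 R270H/R270H against Trp53 flox/flox. It was 15.4%, 11.8% and 24.6% with genes above 1 rpkm, 1.18%, 0.202% and 2.07% with no filter, 59.6%, 1.49% and 5.32% with weights, 59.1%, 0.609% and 4.03% with only the 2 genotypes, and up to 57.8%, 69.3% and 72.8% with 1 library left out. For the Notch genes in Trp53 R270H/R270H against Trp53 +/+ the count was 1, and 3 with genes above 1 rpkm, 4 with weights for each genotype, 4 with only the 2 genotypes compared, and 0 to 4 with 1 library left out. In Trp53 flox/flox against Trp53 +/+ it was 2, and 0 with no filter, with weights and with only the 2 genotypes, and 0 to 7 with 1 library left out. In Trp53 R270H/R270H against Trp53 flox/flox it was 2, and 1 with no filter, 0 with weights and with only the 2 genotypes, and 0 to 6 with 1 library left out. Of the other pathway genes 5, 4 and 11 were called in these comparisons. With no filter these were 1, 0 and 2, with weights 24, 0 and 0, with only the 2 genotypes 24, 0 and 0, and with 1 library left out 0 to 24, 0 to 30 and 0 to 33. Of the secretory cascade 0, 1 and 0 were called. With no filter 0 were called in Trp53 flox/flox against Trp53 +/+, with weights the first 2 counts were 2 and 0, with only the 2 genotypes 3 and 0, and with 1 library left out 0 to 2, 0 to 4 and 0 to 3. With 1 library left out, the share of all genes called fell in each comparison without a Trp53 +/+ or Trp53 R270H/R270H library. It rose in each without a Trp53 flox/flox library. The setting without a filter tests more genes, and a 2-genotype fit takes its spread from those 2 genotypes alone. Why the counts moved was not tested.

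What the replicate numbers mark is not stated. Same-numbered libraries come from different mice, and their deviations correlated at 0.12 (Trp53 +/+ with Trp53 flox/flox), -0.29 (Trp53 +/+ with Trp53 R270H/R270H) and -0.20 (the mutant genotypes), so the numbers were not taken as pairs. With the replicate block, 1 Notch gene, 1 other pathway gene and 0 cascade genes were called in Trp53 flox/flox against Trp53 +/+ and 4 other pathway genes between the mutant genotypes. A block with exchanged numbers for Trp53 R270H/R270H, chosen after seeing the data, gave 1 and 2 in the former for Notch and other pathway genes, and 1 cascade gene in the latter. It left Hes1 with an adjusted p of 0.0535 in Trp53 flox/flox against Trp53 +/+. The pairing changed no other call of a Notch gene. Median-of-ratios scaling called Jag2 lower in Trp53 R270H/R270H than in Trp53 flox/flox (adjusted p=0.0494). At the estimated depth the lowest value of each Notch gene other than Atoh1 and Notch3, which reach the floor, stands for about 303 reads or more.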
